A study of Mus musculus with 6 samples.

Results

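The genes described here build the actin cytoskeleton and the integrin adhesions that couple it to the substrate. They are 32 of the 55401 genes in the deposited count matrix, taken as a fixed list of symbols: 7 genes of actin, myosin and actin turnover, 4 tropomyosins, 8 genes of the adhesion plaque and actin crosslinks, 5 integrin subunits, Ptk2, Ptk2b, Src, Ilk, Rhoa, Rock1 and Rock2 for signalling at adhesions, and vimentin. Each symbol was matched to 1 Ensembl identifier, and all 32 passed the filter on low counts. RNA sequencing was done on bone marrow-derived macrophages of C57BL/6 mice, in a study of how the mechanically gated channel Piezo1 acts on macrophage proliferation in bone remodeling. Of the 6 libraries, 3 came from cells given a negative-control siRNA (siNC) and 3 from cells given an siRNA against Piezo1 (siPiezo1). All cells, controls included, had been stretched for 4 h, so the comparison is between siRNAs in stretched cells, and cells without stretch were not analysed here. Whether the replicates come from separate cultures or from separate animals is not in the labels, and p-values here measure only sample-to-sample spread, possibly technical. Sex and age of the mice are not given in the labels.

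Integrins are paired α and β chains that bind matrix outside the cell and, through talin, kindlin and vinculin, actin inside it. Myosin II pulls on the actin filaments, tropomyosins line them, and zyxin, VASP and α-actinin gather where filaments carry tension. Focal adhesion kinase, Pyk2, Src and RhoA with its ROCK kinases turn these contacts over and set their tension. Macrophages adhere through short-lived contacts and podosomes, which use the same parts.

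Libraries held 61086684 to 75052745 estimated counts. About 3.73 to 3.77 of these counts stood for 1 sequenced fragment, so a library held 16.2 to 19.9 M fragments. Piezo1 stood at 180, 285 and 189 CPM (counts scaled to the library's total with TMM factors) in siNC 1, 2 and 3 and at 111, 109 and 113 in siPiezo1, 51% of the siNC mean. Its log2 fold change (siPiezo1 against siNC) was -0.97 ± 0.18 (SE), and the edgeR quasi-likelihood test gave it an adjusted p of 0.744 over all 6 libraries and of 0.00245 when siNC 2 was left out. Library siNC 2 stood apart: its correlation with the rest, over genes in log2 CPM, was 0.938 to 0.951. The 10 macrophage markers listed were all detected and together held 30370 CPM in siNC 2 and 37380 to 40260 CPM in the others. Summed neutrophil markers, all 12 of 12 passing the filter, stood at 638, 3252 and 684 CPM in siNC and 606 to 629 in siPiezo1. Summed platelet markers (7 of 7) stood at 46.5, 280 and 48.7 CPM in siNC and 48.7 to 56.6 in siPiezo1, and summed fibroblast markers (11 of 12) at 30.2, 131 and 23.3 CPM in siNC and 40.2 to 42.8 in siPiezo1. Library siNC 2 was the highest for 11 of 12 neutrophil and 7 of 7 platelet markers, but for 5 of the 11 fibroblast markers tested. Because siNC 2 stood apart, many results are also given without it. In bulk RNA, fewer cells of a type and less RNA per cell cannot be told apart.

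Levels are compared between genes per kb of exon, as means over the 6 libraries. The length counts each annotated exon base of a gene once, over all its transcripts, expressed or not. Ranks and shares between genes are therefore approximate. Actb was highest at 511 CPM per kb, followed by Actg1 at 315, Cfl1 at 296, Tpm4 at 212, Itgb1 at 187, Vasp at 158 and Flna at 139, with Vim between Cfl1 and Tpm4. The lowest were Tpm2 at 0.131 and Myl9 at 0.267 CPM per kb, below Ptk2 at 2.73, Rock1 at 5.21 and Acta2 at 5.49. The genes best known from muscle (Acta2, Myl9 and Tpm2) were thus all among the 5 lowest.

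No member had an edgeR quasi-likelihood p, adjusted by Benjamini-Hochberg, under the threshold of 0.05 over the 6 libraries, where 1 of 15959 genes did (0.00627%). At an unadjusted p under 0.05 there were 3 members: Zyx and Actg1, lower in siPiezo1, and Pxn, higher. That is 9.38% of the members, beside 4.93% of all genes tested. DESeq2 called 1 member, Zyx, and 0.555% of all genes, whereas limma-voom called 0 members and 0.00627% of all genes. Without siNC 2 edgeR called 0 of the 32 and 1.12% of all genes. In that fit 5 members had an unadjusted p under 0.05 (15.6%, beside 14.4% of all genes). They were Zyx and Actg1, lower in siPiezo1, and Pxn, Itgb1 and Rock1, higher. Of the members, 28 of 32 (87.5%) had a log2 fold change within 0.25 of 0, as did 63.5% of all genes. The median log2 fold change was 0.04 over the members and -0.01 over all genes, with 18 members above 0 and 14 below (56.2% above 0, beside 48.0% of all genes). Without siNC 2 the median was 0.09 over the members and 0.0054 over all genes. The median SE was 0.13 for the members and 0.23 for all genes. The levels of siPiezo1 and siNC did not overlap for 4 members, 1 higher (Pxn) and 3 lower (Zyx, Actg1 and Actn1). At 12.5% this is close to the 11.9% of all genes whose groups did not overlap (6.24% higher and 5.65% lower).

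**Figure D1:**
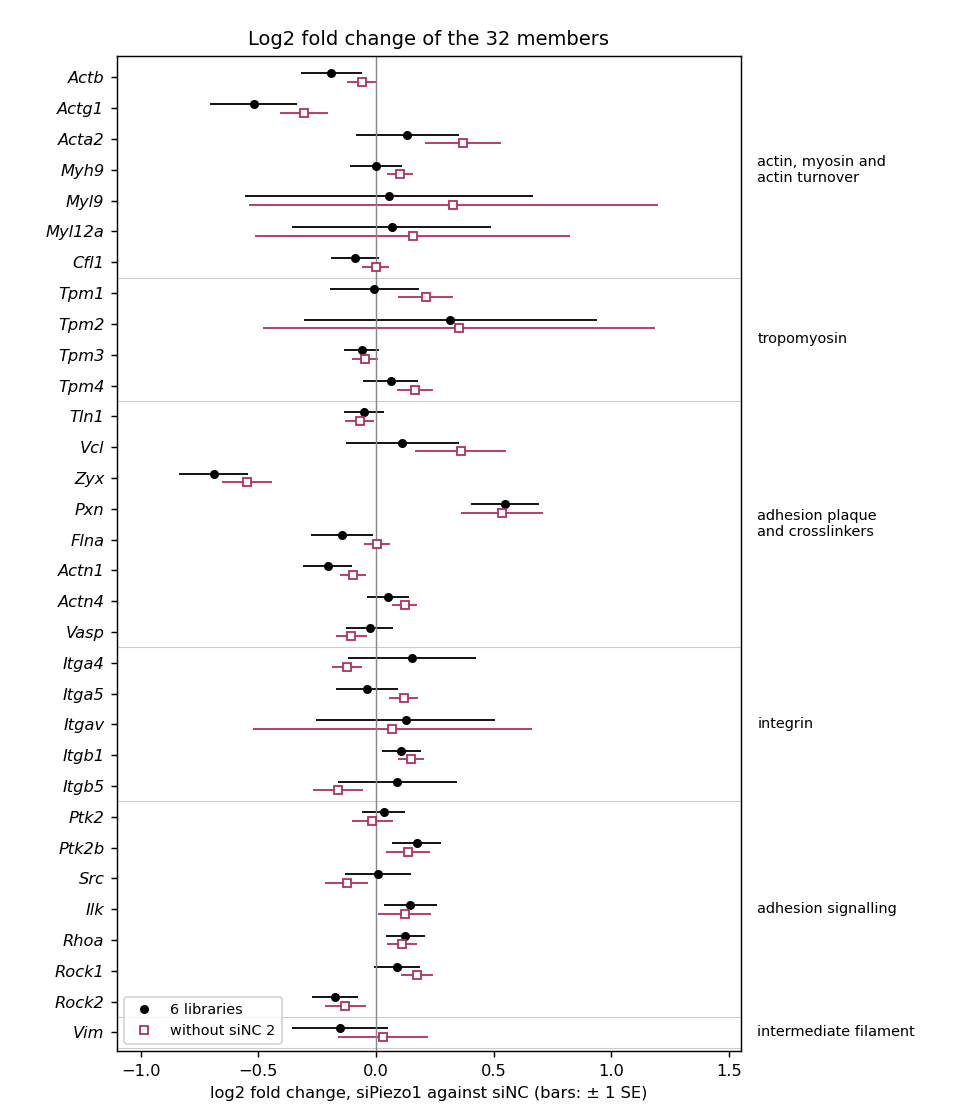
Log2 fold change of siPiezo1 against siNC (x axis) for each of the 32 members (y axis, by class), with 6 libraries (black circles) and without siNC 2 (open squares); bars are ± 1 SE. Zyx and Actg1 lie to the left and Pxn to the right in both fits, while Myh9, Tpm1, Flna, Itga4, Itga5, Itgb5, Ptk2, Src and Vim change side of 0 between the fits.

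The largest differences lay in the adhesion plaque, where zyxin was lower and paxillin higher in siPiezo1. Zyx encodes a LIM-domain protein that moves to strained actin filaments. Its level was 57.6, 81.9 and 67.1 CPM in siNC 1, 2 and 3 and 38.3, 43.4 and 46.3 CPM in siPiezo1 1, 2 and 3. Each siPiezo1 library was below each siNC library, and siNC 2 was the highest. On average siPiezo1 held 62.0% of the siNC level, with a log2 fold change of -0.69 ± 0.15 (SE; edgeR quasi-likelihood adjusted p = 0.777, or 0.00258 before adjustment). Without siNC 2 it was -0.55 ± 0.11 (SE, adjusted p = 0.0610, same edgeR test). DESeq2 with all 6 libraries gave an adjusted p of 0.0194, and over all alternatives the log2 fold change ranged from -0.80 to -0.55 and the adjusted p from 0.0194 to 1. On the opposite strand, exons of Epha1 cover 4.38% of the exon bases of Zyx, and Epha1 held at most 0.209 CPM in any library.

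Pxn encodes paxillin, the scaffold that binds focal adhesion kinase and vinculin. It stood at 128, 124 and 125 CPM with siNC against 203, 143 and 205 with siPiezo1. The siNC libraries were close together (SD 2.17 CPM), whereas siPiezo1 2 stood well below the other 2 siPiezo1 libraries (group SD 35.0 CPM). The log2 fold change was 0.55 ± 0.14 (SE; edgeR quasi-likelihood adjusted p = 0.885, or 0.00726 before adjustment), and 0.54 ± 0.17 without siNC 2 (SE, adjusted p = 0.262, same edgeR test). DESeq2 gave an adjusted p of 0.132. In CPM, Zyx over Pxn was 0.450, 0.663 and 0.537 with siNC against 0.189, 0.303 and 0.226 with siPiezo1. This ratio does not depend on the scaling of the libraries. It was chosen after its values were seen and is given with no test.

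The other plaque and crosslinker genes lay nearer to equality. Actn1, encoding the α-actinin that crosslinks filaments at adhesions, stood at 148, 179 and 142 CPM with siNC against 136, 137 and 134 with siPiezo1. The groups did not overlap, though siNC 3 lay just above siPiezo1 2. Its log2 fold change was -0.21 ± 0.10 (SE) and -0.10 ± 0.06 (SE) without siNC 2. Its partner Actn4 stood at 334, 379 and 319 CPM with siNC against 351, 358 and 359 with siPiezo1, with a log2 fold change of 0.05 ± 0.09 (SE), and 0.12 ± 0.05 without siNC 2. The Actn1 to Actn4 ratio in CPM was 0.454 ± 0.0170 in siNC and 0.381 ± 0.00654 in siPiezo1 (SD, n = 3), also chosen after its values were seen.

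Tln1, which encodes the talin that switches integrins on, stood at 969, 981 and 1062 CPM with siNC against 991, 983 and 932 with siPiezo1, with a difference of -0.05 ± 0.08 in log2 (SE). Flna, the filamin that binds integrin tails and crosslinks actin, stood at 1208, 1635 and 1260 CPM with siNC against 1209, 1221 and 1286 with siPiezo1. All libraries but siNC 2 lay within 1.06-fold of each other for Flna, and the log2 fold change was -0.14 ± 0.13 with siNC 2 and 0.00 ± 0.06 without it (SE). Vasp, an actin elongation factor that binds zyxin, stood at 457, 373 and 426 CPM with siNC against 436, 394 and 402 with siPiezo1. The groups overlapped, with siNC 2 lowest, and the log2 fold change was -0.03 ± 0.10 (SE), and -0.11 ± 0.07 without siNC 2.

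Vcl encodes vinculin, which reinforces talin under load. It stood at 38.2, 61.8 and 40.8 CPM with siNC against 45.4, 41.9 and 64.8 with siPiezo1. One library in each group, siNC 2 and siPiezo1 3, was high, and the groups overlapped (log2 fold change 0.11 ± 0.24, SE). Its value ranged from -0.10 without siPiezo1 3 to 0.36 without siNC 2. Exons of Ap3m1 cover 25.5% of the exon bases of Vcl on the opposite strand. Ap3m1 held 100 to 152 CPM, and the sources used here do not say whether counting used the strand.

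**Figure D2:**
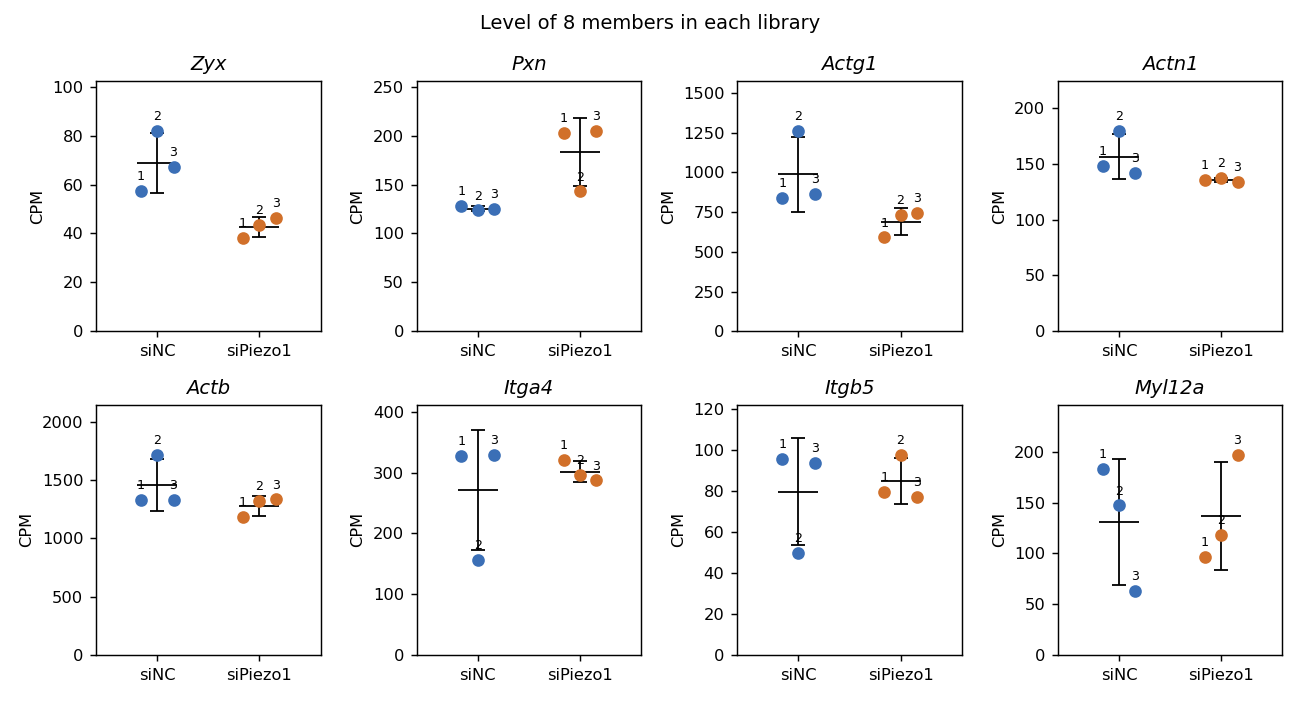
Level in CPM (y axis, from 0) of 8 members in the 3 siNC libraries (blue) and the 3 siPiezo1 libraries (orange); numbers are replicate numbers, horizontal bars the group mean and whiskers ± 1 SD. The groups are apart for Zyx, Pxn, Actg1 and Actn1, siNC 2 alone is low for Itga4 and Itgb5, and Myl12a varies within both groups.

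Of the actin genes, Actb and Actg1 encode the β and γ cytoplasmic actins of all cells, and Acta2 the smooth muscle α-actin. Actg1 was lower in siPiezo1, at 838, 1261 and 864 CPM with siNC against 591, 732 and 744 with siPiezo1. The groups did not overlap, with siNC 2 highest and siPiezo1 1 lowest. The log2 fold change was -0.52 ± 0.19 (SE; edgeR quasi-likelihood adjusted p = 0.978, or 0.0274 before adjustment), and -0.31 ± 0.10 without siNC 2 (SE, adjusted p = 0.213, same edgeR test). The neutrophil, platelet, fibroblast and osteoclast sums were also highest in siNC 2, and their part in this difference was not tested. Actg1 has 5 near-identical copies in the annotation (at least 95% identity over 300 bases or more), of which Gm12715 matches it at 99.6% over 1128 bases. Gm12715 was listed at 11.1, 146 and 12 CPM with siNC against 61.5, 58.4 and 85.1 with siPiezo1, so outside siNC 2 it ran opposite to Actg1. With the 5 copies added, the level was 856, 1418 and 882 CPM with siNC against 658, 798 and 837 with siPiezo1, and the groups still did not overlap. Without siNC 2, siPiezo1 held on average 81% of the siNC level of Actg1 alone and 87.9% with the copies, so the size of the difference depends on how fragments were divided between Actg1 and its copies.

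Actb stood at 1327, 1715 and 1331 CPM with siNC against 1180, 1322 and 1332 with siPiezo1. Leaving siNC 2 aside, both groups lay at about the same level, apart from a lower siPiezo1 1. The log2 fold change was -0.19 ± 0.13 (SE), and -0.06 ± 0.07 (SE) without siNC 2. In CPM, Actg1 over Actb was 0.632, 0.735 and 0.649 with siNC against 0.501, 0.554 and 0.558 with siPiezo1, given with no test because it was chosen after its values were seen. Per kb of exon, Actg1 made up 38.7%, 42.3% and 39.3% of the 3 actin genes in siNC and 33.3%, 35.6% and 35.7% in siPiezo1.

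Acta2 stood at 9.85, 15.0 and 9.67 CPM with siNC against 11.4, 11.8 and 14.6 with siPiezo1, at most 0.849% of actin per kb of exon in any library. The groups overlapped through siNC 2. Without that library the siPiezo1 libraries all lay above siNC 1 and 3, with a log2 fold change of 0.37 ± 0.16 (SE, edgeR adjusted p = 0.352), against 0.13 ± 0.22 with it. Summed fibroblast markers were likewise higher in the 3 siPiezo1 libraries than in siNC 1 and 3 and highest in siNC 2. Taken singly, siNC 2 was the highest library for 5 of the 11 fibroblast markers tested. Without siNC 2 all 11 had a log2 fold change above 0. Their part in the Acta2 level was not tested. Of 6 smooth muscle markers, 2 (Des and Lmod1) were at 0 in every library and 2 passed the filter, and the 6 summed to 3.26 to 7.33 CPM.

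Myh9, the heavy chain of the main non-muscle myosin II, stood at 1261, 1578 and 1317 CPM with siNC against 1379, 1350 and 1426 with siPiezo1. Both group means were 1385 CPM (log2 fold change -0.00027 ± 0.11, SE), and without siNC 2 the log2 fold change was 0.10 ± 0.05. Cfl1, the cofilin that severs actin filaments, stood at 829, 974 and 798 CPM with siNC against 795, 796 and 852 with siPiezo1. Its log2 fold change was -0.09 ± 0.10 with siNC 2 and -0.0007 ± 0.06 without it (SE). Myl9, a myosin light chain best known from smooth muscle, was barely detected, at 0.239 to 0.410 CPM or 4.24 to 8.25 fragments per library. These are too few to show any but a large difference (0.06 ± 0.61, and 0.33 ± 0.87 without siNC 2, SE).

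Myl12a, a regulatory light chain of non-muscle myosin II, was the most uneven member above 1 CPM, at 183, 147 and 62.8 CPM with siNC against 96.2, 118 and 197 with siPiezo1. High and low libraries occurred in both groups, a 3.14-fold span. The neighbouring Myl12b encodes a near-identical chain (96.5% identity over 550 bases) and stood at 192, 175 and 178 CPM with siNC against 213, 200 and 216 with siPiezo1, a 1.23-fold span. A second identifier named Myl12b, which shares 462 exon bases with Myl12a and 739 with the main Myl12b entry, held 40.5 CPM in siNC 2 and 0 in the other libraries. The 3 entries summed to 375, 363 and 241 CPM with siNC against 309, 318 and 413 with siPiezo1. The log2 fold change of Myl12a was 0.07 ± 0.42 (SE), 0.16 ± 0.67 without siNC 2 and 0.09 ± 0.20 (SE) with the entries summed, an alternative added after seeing the data. The sources used here do not say how fragments were divided among these entries, so the value of Myl12a alone is uncertain.

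Serum response factor, which the actin-binding coactivators MRTF-A and MRTF-B serve, binds the CArG box of many actin cytoskeleton genes. RefSeq promoter windows on GRCm38.p6, from 250 bases before to 50 after the start, were found for 27 of the 32 members and searched for the CArG box, a pattern that reads alike on both strands. It was found in 3 members (11.1% of the 27), Actg1, Myl9 and Vcl, beside 1.81% of all 27025 genes in the table. No window was found for Actb, Pxn, Ptk2, Ptk2b and Rock1, so these were not searched. The 250 bases before the start are shown for these 3 to set the box beside the values above, with the CArG box in capitals.

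Actg1, chr11:120348496-120348745, minus strand: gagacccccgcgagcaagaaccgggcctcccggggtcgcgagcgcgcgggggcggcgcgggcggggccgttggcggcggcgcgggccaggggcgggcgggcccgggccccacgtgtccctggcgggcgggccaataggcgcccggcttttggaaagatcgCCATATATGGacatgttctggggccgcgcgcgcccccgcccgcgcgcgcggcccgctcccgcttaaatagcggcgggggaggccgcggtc

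Myl9, chr2:156775214-156775463, plus strand: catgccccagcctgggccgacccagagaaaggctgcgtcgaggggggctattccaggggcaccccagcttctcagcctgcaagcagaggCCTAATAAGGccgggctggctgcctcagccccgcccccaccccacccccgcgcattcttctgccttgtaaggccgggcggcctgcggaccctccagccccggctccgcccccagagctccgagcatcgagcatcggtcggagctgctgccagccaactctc

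Vcl, chr14:20929148-20929397, plus strand: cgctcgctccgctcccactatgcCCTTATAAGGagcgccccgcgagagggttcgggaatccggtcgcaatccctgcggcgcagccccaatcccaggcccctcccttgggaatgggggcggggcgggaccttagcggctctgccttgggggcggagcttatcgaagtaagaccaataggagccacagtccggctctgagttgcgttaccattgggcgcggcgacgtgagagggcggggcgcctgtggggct

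The first base of the box lay 90 bases before the start in Actg1, 161 in Myl9 and 227 in Vcl. The log2 fold changes were -0.52 ± 0.19 for Actg1, 0.06 ± 0.61 for Myl9 and 0.11 ± 0.24 for Vcl (SE), and those of Myl9 and Vcl were smaller than their errors. The windows of Zyx and Acta2 held no exact match, which says only that these letters are not in these 300 bases.

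Tropomyosins were dominated by Tpm4 and Tpm3 in every library, whichever siRNA was given. Per kb of exon, Tpm4 made up 66.1% to 70.8% of the 4 genes, Tpm3 26.5% to 30.9%, Tpm1 2.66% to 3.72% and Tpm2 at most 0.0655%. The ranges of siNC and siPiezo1 overlapped for all 4 shares. Tpm3 was the steadiest member of all, at 526, 552 and 544 CPM with siNC against 508, 511 and 535 with siPiezo1, within 1.09-fold (log2 fold change -0.06 ± 0.08, SE). A copy, Tpm3-rs7, matches Tpm3 at 99.2% over 1910 bases and averaged 68.3 CPM.

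Tpm4 stood at 428, 521 and 421 CPM with siNC against 492, 431 and 506 with siPiezo1 (0.06 ± 0.12, and 0.17 ± 0.08 without siNC 2, SE). Tpm1 stood at 53.5, 81.9 and 56.1 CPM with siNC against 54.4, 64.0 and 72.3 with siPiezo1. Its log2 fold change was -0.0065 ± 0.19 with siNC 2 and 0.21 ± 0.12 without it (SE). Tpm2, known from muscle, rested on 3.18 to 11.5 fragments per library, too few to show any but a large difference. Its log2 fold change was 0.32 ± 0.62, and 0.35 ± 0.83 without siNC 2 (SE). The median log2 fold change of the 4 genes was 0.03, and 0.19 without siNC 2.

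**Figure D3:**
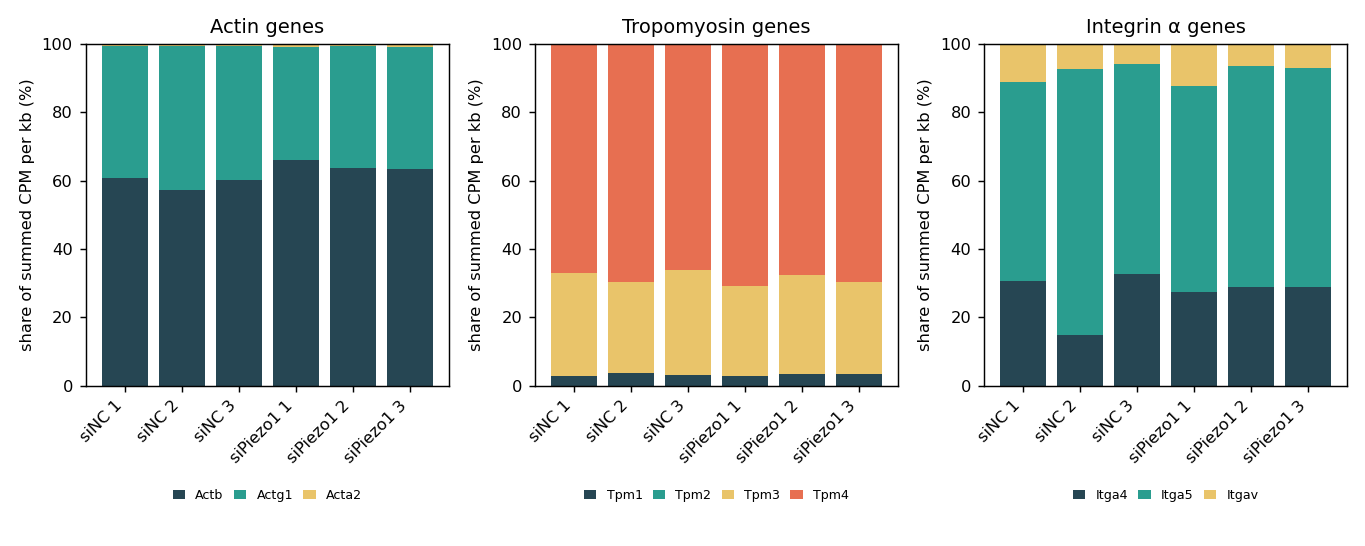
Share (y axis, %) of each gene in the summed CPM per kb of exon of the actin, tropomyosin and integrin α members, for each of the 6 libraries (x axis). Actg1 makes up 38.7% to 42.3% of actin in siNC and 33.3% to 35.7% in siPiezo1, the tropomyosin shares are alike in all libraries, and Itga4 is lowest in siNC 2 at 14.7%.

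Over the 6 libraries, the levels of siNC and siPiezo1 overlapped for every integrin member. Itgb1 encodes the β1 chain that pairs with α4, α5 and αv, and it was the integrin member with the highest level per kb of exon, at 170 to 197 CPM per kb. It stood at 693, 777 and 735 CPM with siNC against 798, 774 and 803 with siPiezo1, with siNC 2 just above siPiezo1 2. The log2 fold change was 0.11 ± 0.08 (SE). Without siNC 2 it was 0.147 ± 0.055 (SE, edgeR adjusted p = 0.263, or 0.0283 before adjustment), with all siPiezo1 libraries above siNC 1 and 3. Itga5, the α chain of the main fibronectin receptor, stood at 218, 293 and 218 CPM with siNC against 249, 235 and 226 with siPiezo1. The siPiezo1 libraries lay between siNC 2 and the other 2 siNC libraries, so the log2 fold change was -0.04 ± 0.13 with siNC 2 and 0.12 ± 0.06 without it (SE).

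Itga4 and Itgb5 showed the opposite pattern in siNC 2. Itga4, the α chain of the receptor for VCAM-1 and fibronectin, stood at 327, 157 and 329 CPM with siNC against 321, 296 and 287 with siPiezo1. All siPiezo1 libraries were thus between siNC 2 and the other siNC libraries, with a log2 fold change of 0.15 ± 0.27, and -0.12 ± 0.06 without siNC 2 (SE). Itgb5, which pairs with αv to bind vitronectin, stood at 95.7, 49.7 and 93.9 CPM with siNC against 79.5, 97.8 and 77.4 with siPiezo1 (0.09 ± 0.25, and -0.16 ± 0.10 without siNC 2, SE). Per kb of exon, Itga4 made up 30.7%, 14.7% and 32.7% of the 3 α genes in siNC and 27.4% to 28.8% in siPiezo1.

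Itgav, encoding αv, stood at 91.6, 60.6 and 45.3 CPM with siNC against 112, 50.5 and 52.9 with siPiezo1. Both groups had 1 high library, siNC 1 and siPiezo1 1, and the log2 fold change was 0.13 ± 0.38 (SE), and 0.07 ± 0.59 without siNC 2. Leaving out siPiezo1 1 gave -0.35, and leaving out siNC 1 gave 0.44.

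Ptk2 encodes focal adhesion kinase and Ptk2b its relative Pyk2, the form known to be abundant in macrophages. Per kb of exon, Ptk2b averaged 38.0 CPM and Ptk2 2.73 CPM over the 6 libraries. Ptk2 stood at 32.8, 29.8 and 33 CPM with siNC against 32.4, 31.8 and 33.5 with siPiezo1 (0.03 ± 0.09, and -0.02 ± 0.09 without siNC 2, SE). Ptk2b stood at 244, 252 and 298 CPM with siNC against 278, 310 and 307 with siPiezo1, with siNC 3 among the siPiezo1 libraries (0.17 ± 0.10, SE).

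Src, the kinase that joins focal adhesion kinase in signalling, stood at 33.3, 24.6 and 33.4 CPM with siNC against 30.7, 29.3 and 31.8 with siPiezo1 (0.0092 ± 0.14, and -0.13 ± 0.09 without siNC 2, SE). Ilk, the integrin-linked pseudokinase, stood at 77.8, 74.5 and 78.1 CPM with siNC against 98.6, 80.4 and 75.8 with siPiezo1. Its higher value rested on siPiezo1 1 (0.15 ± 0.11, SE). Its level is uncertain, since exons of Taf10, at 36.9 to 44.9 CPM, cover 76.7% of its exon bases on the opposite strand. Rhoa, the GTPase that switches on contraction, stood at 593, 596 and 626 CPM with siNC against 681, 619 and 679 with siPiezo1. Only siPiezo1 2 fell within the siNC range, and the log2 fold change was 0.12 ± 0.08 (SE). Rock1 and Rock2 encode the kinases that RhoA activates. Rock1 stood at 86.2, 102 and 85.9 CPM with siNC against 91.7, 99.0 and 101 with siPiezo1 (0.09 ± 0.10, and 0.17 ± 0.07 without siNC 2, SE). Rock2 stood at 109, 115 and 100.1 CPM with siNC against 93.2, 88.6 and 105 with siPiezo1 (-0.17 ± 0.10, SE). The groups overlapped for both kinases. RNA levels give no measure of phosphorylation or of bound GTP, by which these proteins signal.

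Vim, the intermediate filament of macrophages and stromal cells, stood at 1019, 1564 and 1201 CPM with siNC against 980, 1395 and 1027 with siPiezo1. Replicate 2 was the highest in both groups, and the log2 fold change was -0.15 ± 0.20, or 0.03 ± 0.19 without siNC 2 (SE).

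Across the list, siNC 2 was the outermost library for most members. It was the highest of the 6 for 17 of 32 (53.1%, beside 28.8% of all genes) and the lowest for 7 (21.9%, beside 27.1%). It was highest for 6 of 7 genes of actin, myosin and actin turnover and 3 of 4 tropomyosins, but for 1 of 5 integrins. Against the mean of siNC 1 and 3, siNC 2 was 1.48-fold for Actg1, 1.54-fold for Acta2, 1.5-fold for Tpm1, 1.57-fold for Vcl and 1.41-fold for Vim, and 0.478-fold for Itga4 and 0.524-fold for Itgb5. The neutrophil, platelet and fibroblast sums were also highest in siNC 2, and their part in these differences was not tested.

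**Figure D4:**
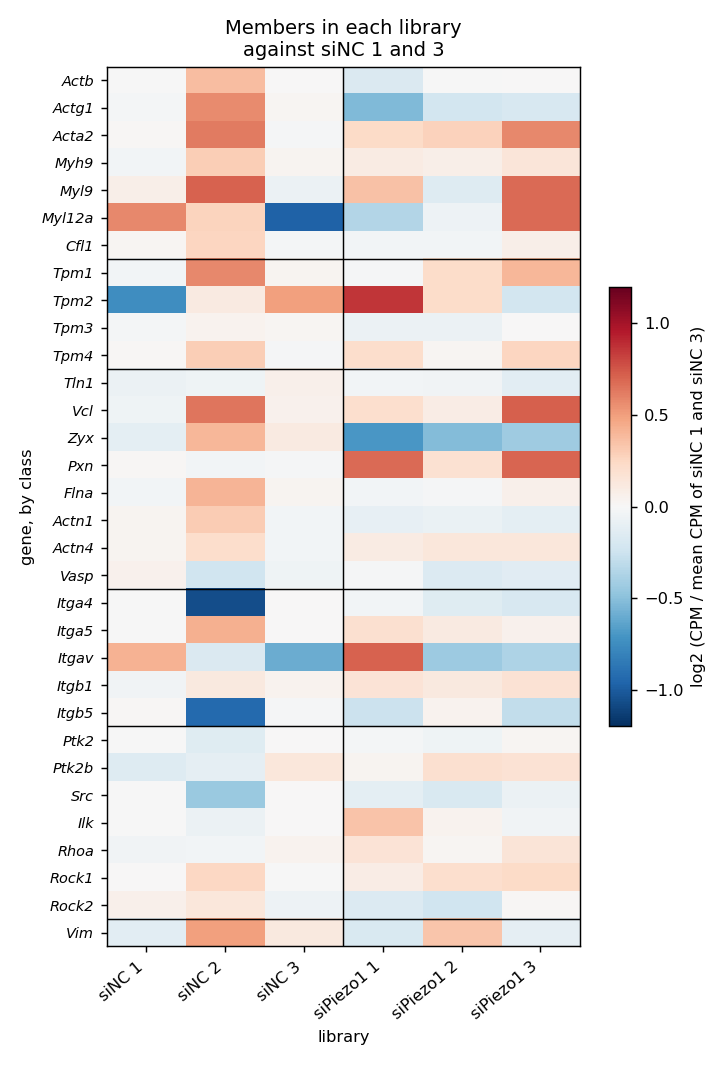
Log2 of CPM over the mean of siNC 1 and 3 (colour) for each member (rows, by class) and library (columns). The siNC 2 column is red for most actin, tropomyosin and crosslinker genes and blue for Itga4 and Itgb5, while Zyx is blue and Pxn red in the 3 siPiezo1 columns.

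Other genes of the pathway came from 7 lists with 154 genes, of which 141 were tested. Over the 6 libraries edgeR called 0 of them, and an unadjusted p under 0.05 was found for 5 higher and 5 lower genes (7.09% beside 4.93% of all genes). Without siNC 2, 44 of the 141 had an unadjusted p under 0.05 (31.2% beside 14.4% of all genes). In that fit their median SE was 0.08, beside 0.18 for all genes, and the median log2 fold change was 0.005 for both. DESeq2 called 1 higher (Itgb7) and 2 lower (Dok2 and Fos), beside 0.290% of all genes higher and 0.265% lower. Itgb7, the β7 chain that pairs with α4, stood at 22.2, 23.5 and 22.7 CPM with siNC against 32.6, 30.7 and 30.5 with siPiezo1. Both groups were tight and apart, with a log2 fold change of 0.46 ± 0.09 (SE, DESeq2 adjusted p = 0.00447, edgeR quasi-likelihood adjusted p = 0.744). Itga8, which neither test called, stood at 2.26, 3.18 and 2.32 CPM with siNC against 3.97, 5.09 and 5.34 with siPiezo1. Its log2 fold change was 0.89 ± 0.25 (SE, DESeq2 adjusted p = 0.125, edgeR quasi-likelihood adjusted p = 0.940). Dok2, an adaptor that restrains receptor signalling, was named after its values were seen and had -0.61 ± 0.12 (SE, DESeq2 adjusted p = 0.00626). The edgeR test did not call Dok2, with 6 libraries or without siNC 2. Fos, an early response gene controlled by serum response factor, stood at 64.0, 57.4 and 60.9 CPM with siNC against 40.2, 43.4 and 40 with siPiezo1. The groups were far apart beside their spread, with a log2 fold change of -0.56 ± 0.09 (SE, DESeq2 adjusted p = 9.63e-05, edgeR quasi-likelihood adjusted p = 0.497).

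The median log2 fold change was -0.56 for the 15 tested genes among the other integrin subunits and 0.17 without siNC 2. For the remaining lists it was -0.0031 for the Arp2/3 complex, WASP, WAVE and formins (28 genes), -0.07 for monomer-binding, severing, capping and bundling proteins (40), 0.05 for other myosin genes (12), 0.0098 for integrin activation and adaptors (29), 0.04 for Src family and Syk kinases (8) and -0.08 for serum response factor, its coactivators and targets (9). Without siNC 2 these medians were, in the same order, -0.01, -0.01, 0.00073, 0.01, 0.07 and -0.03.

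Without siNC 2, edgeR called 4 of the 141 genes higher and 2 lower. Of all genes tested it called 0.664% higher and 0.451% lower. The higher genes were Tes, which encodes a LIM protein that binds zyxin, Pls3, which encodes the actin bundler plastin 3, Tmsb10, which encodes a thymosin that binds actin monomers, and Pdlim7. Tes stood at 48.2, 146 and 48.8 CPM with siNC against 81.3, 77.8 and 93.8 with siPiezo1. The siPiezo1 libraries lay above siNC 1 and 3 but below siNC 2, and the same order held for Tmsb10, Pls3 and Pdlim7. It also held for the summed fibroblast markers given above and for the summed osteoclast markers (4 of 6 passing the filter), at 178, 503 and 175 CPM with siNC against 211, 247 and 292 with siPiezo1. Taken singly, siNC 2 was highest for 5 of the 11 fibroblast markers tested and for 4 of the 4 osteoclast markers tested. The part of these cell types in the 4 calls was not tested. The log2 fold changes without siNC 2 were 0.79 ± 0.09 for Tes, 0.49 ± 0.08 for Pls3, 0.59 ± 0.08 for Tmsb10 and 1.0 ± 0.16 for Pdlim7 (SE; edgeR adjusted p = 0.0121, 0.0280, 0.0200 and 0.0290). With all 6 libraries they were 0.06 ± 0.43, 0.25 ± 0.18, 0.12 ± 0.31 and 0.0087 ± 0.55. The lower genes were Fos and Evl, which encodes a relative of VASP, at -0.60 ± 0.08 and -0.46 ± 0.07 without siNC 2 (SE; adjusted p = 0.0164 and 0.0259, same edgeR test).

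In the lists with no call, the 2 genes with the smallest p were Abi3 (0.70 ± 0.34) and Arpc5 (0.36 ± 0.23) of the nucleators, Myl12b (0.21 ± 0.08) and Myo18a (-0.18 ± 0.08) of the myosins, and Csk (0.15 ± 0.07) and Lyn (-0.22 ± 0.12) of the Src family list, as log2 fold changes with SE. Abi3 had 0.37 ± 0.09 and Lyn -0.09 ± 0.06 without siNC 2. Arpc5 stood at 260, 490 and 322 CPM in siPiezo1 and had 0.06 ± 0.14 without siPiezo1 2.

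**Figure D5:**
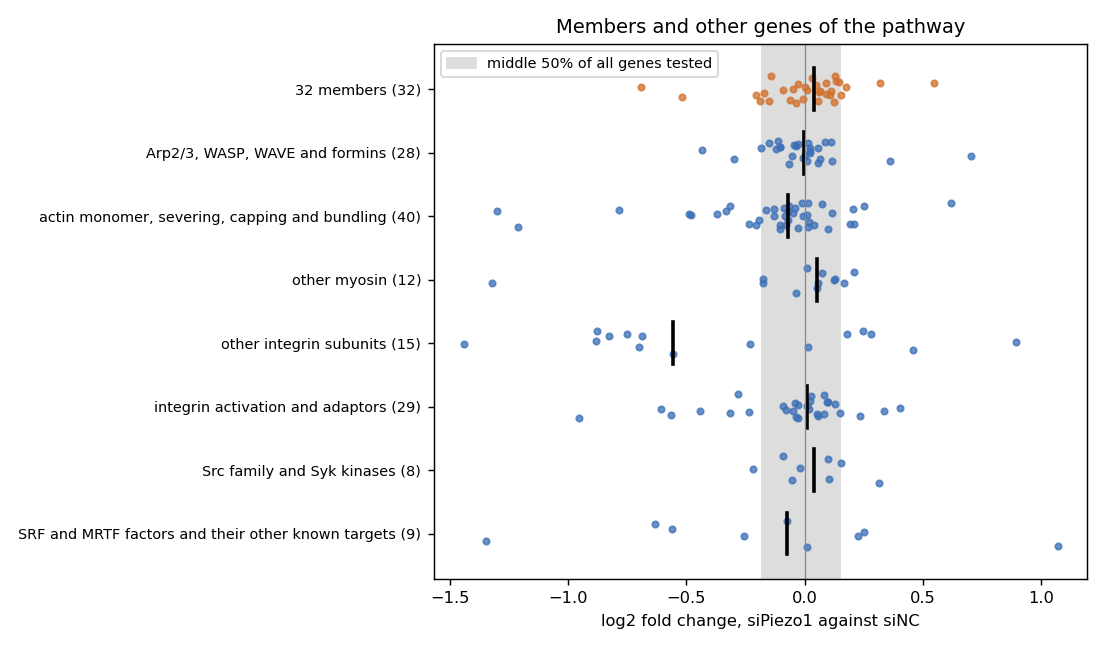
Log2 fold change of siPiezo1 against siNC with 6 libraries (x axis) for the 32 members and the tested genes of 7 lists of the pathway (y axis, number of genes in brackets); each point is a gene, black lines are medians and the grey band holds the middle 50% of all genes tested. Medians lie near 0 except for the other integrin subunits, at -0.56, where the median SE is 0.53. Without siNC 2, which is not drawn, the median of that list was 0.17.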

How the data were processed

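The authors deposited whole-number estimated counts per Ensembl gene, not scaled between libraries. Per the submitters' processing notes, cutadapt 1.9, HISAT2 2.0.4, StringTie 1.3.4d, DESeq2 and edgeR were used with GRCm39; the sources used here do not give their roles or say whether strand was used. Per the labels' protocols, poly(A) libraries were dUTP-marked and sequenced in pairs. A total of 0 columns were left unmapped. Symbols and exon lengths came from GENCODE M21 (GRCm38), which matched 55141 of 55401 identifiers, so coordinates of genes are not given.

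Counts were tested in R 4.3.3 with edgeR 4.0.16 (quasi-likelihood, robust, TMM, filterByExpr; 15959 genes) with Benjamini-Hochberg adjustment over all genes tested and a threshold of 0.05. SE is the size of the log2 fold change over the square root of F. Alternatives used DESeq2 1.42.0, limma 3.58.1 (voom), other scalings and filters, a replicate block and each library left out. The test was checked on simulated counts. Near-identical copies (at least 95% identity over 300 bases) were sought with blastn.

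Members and lists were chosen with earlier results of these data known. Named genes are all members, Piezo1 and, per pathway list, up to 4 genes past the threshold with 6 libraries or without siNC 2, or else the 2 smallest p. The lymphocyte, endothelial and osteoclast markers summed to at most 1.95, 123 and 503 CPM in any library. The design assumed counts or estimated counts, and no rounding was needed. A further list of pathway genes is not reported here.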

Additional observations from a re-analysis of the deposited data

How the results depend on the processing

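With 6 libraries edgeR called 1 gene of all tested and 0 members. The count over all genes was 0 with library totals alone, 88 with DESeq2, 17 with limma-voom and library weights, and 0 to 178 when 1 library was left out, the highest without siNC 2. The count of members was 1 with DESeq2 and 0 in every other alternative run. The log2 fold change of Piezo1 was -0.98 with DESeq2 and -0.77 with library weights, both called, and -1.09 to -0.73 with 1 library left out, called without siNC 2. With the replicate number as a block 0 genes were called. Whether the numbers pair the samples could not be settled. Deviations of same-numbered libraries correlated at 0.030, -0.062 and -0.086, and not every library correlated best with its own number. These deviations are taken from means of few libraries, with siNC 2 apart, so weak correlations cannot exclude pairing. The block changed no call of a member, but 0 were called without it.

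The tropomyosin median was 0.152 with library weights and -0.0346 to 0.189 with 1 library left out. Leaving out 1 library gave 0.0687 to 0.243 for the integrin median. The signs of Zyx, Actg1, Pxn and Actn1 held in all 15 alternatives of each. So did those of Actb, Acta2, Cfl1, Tpm3, Tpm4, Tln1, Itgb1, Ptk2b, Ilk, Rhoa, Rock1 and Rock2. All alternatives reuse the same libraries, so a held sign is weak evidence of a difference.

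The sign of the following genes turned in at least 1 alternative. With library weights the log2 fold change was 0.08 for Myh9, 0.16 for Tpm1, -0.06 for Itga4, 0.09 for Itga5, -0.10 for Itgb5, -0.0068 for Ptk2 and -0.10 for Src. Limma-voom gave 0.0068 for Myh9 and 0.0029 for Tpm1, the replicate block 0.0064 and 0.01, and no filter 0.0005 for Myh9. Pdlim7 had -0.02 with library totals and -0.00085 with at least 50 counts in 3 libraries. Leaving out 1 library gave ranges of -0.06 to 0.10 for Myh9, -0.15 to 0.33 for Myl9, -0.29 to 0.38 for Myl12a, -0.12 to 0.21 for Tpm1, -0.02 to 0.60 for Tpm2, -0.10 to 0.36 for Vcl, -0.22 to 0.004 for Flna, -0.0031 to 0.12 for Actn4, -0.11 to 0.04 for Vasp, -0.12 to 0.32 for Itga4, -0.11 to 0.12 for Itga5, -0.35 to 0.44 for Itgav, -0.16 to 0.24 for Itgb5, -0.02 to 0.06 for Ptk2, -0.13 to 0.08 for Src, -0.33 to 0.03 for Vim, -0.10 to 0.59 for Tmsb10, -0.33 to 1.0 for Pdlim7 and -0.21 to 0.79 for Tes. The cause was not tested. Myl9 and Tpm2 gave no value with at least 50 counts in 3 libraries or with counts divided by 3.73 to 3.77, which left them out of the test.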

Other observations

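Some abundant entries were uneven within the siPiezo1 group. Among genes with a mean of at least 50 CPM, the highest siPiezo1 library was more than 2-fold above the lowest for 2 of 26 members, Myl12a and Itgav (7.69%), and for 82 of 4012 of all genes tested (2.04%). Among the other pathway genes it was so for 1 of 91. Itgam, the α chain of the Mac-1 integrin of myeloid cells, stood at 541, 664 and 391 CPM with siNC against 1394, 262 and 284 with siPiezo1. Itgb2, which pairs with Itgam, was even, at 1201, 1188 and 1223 CPM with siNC against 1349, 1333 and 1407 with siPiezo1, and the groups did not overlap (log2 fold change 0.18 ± 0.08, SE; edgeR adjusted p = 0.978). Itgal, the α chain of LFA-1, stood at 237, 242 and 228 CPM with siNC against 290, 270 and 278 with siPiezo1 (0.25 ± 0.07, SE; adjusted p = 0.967, same edgeR test). These genes were picked after their values were seen.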
